A study of Mus musculus with 33 samples.

Results

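The respiratory chain was followed through its transcripts: 114 of the 16336 genes in the deposited table carry a symbol that starts with Nduf, Uqcr, Atp5, Cox and a digit, mt-Nd, mt-Co, mt-Cytb or mt-Atp, or are Sdha, Sdhb, Sdhc, Sdhd, Cyc1 or Cycs, after 1 name with -ps was dropped. Of these, 103 are nuclear genes and 11 lie in mitochondrial DNA. mt-Co1 and mt-Atp8, which the rule would take in, have no row, so no mitochondrial sum or ranking here includes them. By complex, 52 members belong to complex I, 4 to complex II, 10 to complex III, 29 to complex IV and 18 to complex V, and 1 is cytochrome c. The name rule takes in 8 assembly factors of complex I and 9 of complex IV as well as subunits.

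Complexes I to IV pass electrons from NADH and succinate to oxygen and pump protons across the inner mitochondrial membrane, and complex V, the ATP synthase, uses the proton gradient to make ATP. Most subunits are made from nuclear genes and imported, whereas a small core of complexes I, III, IV and V is encoded by mitochondrial DNA, so that both genomes have to contribute to the same complexes. Embryonic stem cells are known for a high rate of glycolysis, and several complex IV and complex V subunits exist as paired isoforms that different tissues use to different degrees.

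RNA was sequenced from E14Tg2a, a wild-type mouse embryonic stem cell line of strain 129/Ola, and from ΔK9.1 and ΔK9.2, which are each a single CRISPR clone of E14Tg2a with a homozygous deletion of the H3K9me3 region between the Nanog enhancer and promoter. Each line was taken undifferentiated, in serum with LIF (day 0), and after 4, 6 and 8 days of embryoid body differentiation in serum without LIF. The bodies were kept as floating aggregates to day 4 and then spread thinly on gelatinised culture dishes, so days 6 and 8 are attached outgrowths, and the passage of time from day 4 on cannot be told apart from the change of dish. Per the study's methods the lines were carried side by side in 3 independent assays, though the sources used here do not say that the replicate number names the assay. The 12 groups hold 33 libraries, with 3 libraries in 9 groups and 2 libraries, replicates 2 and 3, in the 3 groups of day 6. The comparisons asked how respiratory chain transcripts moved as the cells left the undifferentiated state, and where the clones departed from E14Tg2a.

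Values are TPM, the share of a gene among the transcripts of a library that remained after the authors omitted outliers. They are scaled for transcript length, so levels can be compared between genes, and the libraries sum to 994280 to 998270 TPM. Differences are log2 fold changes on the log2(TPM + 1) scale ± SE, and a gene is called changed where limma's Benjamini-Hochberg adjusted p over all 16336 genes is under 0.05. Replicates of a group correlated at 0.960 or more across genes, with the lowest value in ΔK9.1 on day 8. Nanog was at 326 to 368 TPM in undifferentiated E14Tg2a, 456 to 486 TPM in ΔK9.1 and 412 to 439 TPM in ΔK9.2. The 10 pluripotency markers summed to 3951 to 4437 TPM in E14Tg2a on day 0 and to 193 to 379 TPM on day 8, and in these bulk libraries fewer cells of a type and less RNA per cell cannot be told apart.

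Respiratory chain transcripts were abundant in every library. The few mitochondrial members listed, which lack mt-Co1 and mt-Atp8, weighed about as much as all nuclear members together. In undifferentiated E14Tg2a the 103 nuclear members summed to 34508 ± 1659 TPM (SD, n = 3) and the 11 mitochondrial members to 33904 ± 408 TPM (SD, n = 3). The ratio of the mitochondrial to the nuclear sum had group means from 0.768 in ΔK9.2 on day 4 to 1.198 in ΔK9.1 on day 6. Averaged over all libraries, mt-Atp6, a proton channel subunit of ATP synthase, had the highest level of the members at 5268 TPM, and among nuclear members Atp5b, the catalytic β subunit of the same enzyme, led with 2398 TPM. The highest nuclear members of the other complexes were Cox7c with 1533 TPM in complex IV, Ndufa7 with 802 TPM in complex I, Uqcr10 with 717 TPM in complex III and Sdhd with 155 TPM in complex II. Cox7b2 and Cox6a2, isoforms known from testis and from muscle, did not reach 5 TPM as a mean in any group, and the other 112 members did.

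Both sums were lower after 4 days of differentiation, and only the nuclear sum stayed below its day 0 range in all 3 lines. The nuclear sum in E14Tg2a was 28897 ± 383 TPM on day 4 (SD, n = 3), 30368 ± 98.6 TPM on day 6 (SD, n = 2) and 29585 ± 930 TPM on day 8 (SD, n = 3). Its day 8 mean was 14.3% below day 0 in E14Tg2a, 15.4% below in ΔK9.1 and 15.1% below in ΔK9.2, and in each line every library of days 4, 6 and 8 lay under every library of day 0. On day 4 the size of the fall in both clones depended on the scaling of the libraries, as given below. Abundant members weigh most in a sum, and the median over nuclear members changed to day 8 by -3.05% in E14Tg2a, while ΔK9.1 had -16.7% and ΔK9.2 had -9.04%. No test was made on these sums.

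The mitochondrial sum dipped further on day 4 and then scattered. It was 25.8% below day 0 on day 4 in E14Tg2a, 23.9% below in ΔK9.1 and 34.2% below in ΔK9.2, with no overlap between the libraries of the 2 days in any line. On day 8 the mean was 26350 ± 4857 TPM in E14Tg2a, while that of ΔK9.1 was 31043 ± 5670 TPM and that of ΔK9.2 29187 ± 2540 TPM (SD, n = 3 each). The E14Tg2a libraries of day 8 were all under those of day 0, whereas the ranges of days 0 and 8 overlapped in both clones. With each library rescaled by its median ratio to the other libraries, the day 4 change of the mitochondrial sum was 8.02% down in ΔK9.1 and 24.4% down in ΔK9.2, and the nuclear sum in ΔK9.1 was 4.54% above day 0 instead of 13.4% below it. In ΔK9.2 the rescaled nuclear sum of day 4 stayed below day 0, but by far less than without rescaling.

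**Figure D1:**
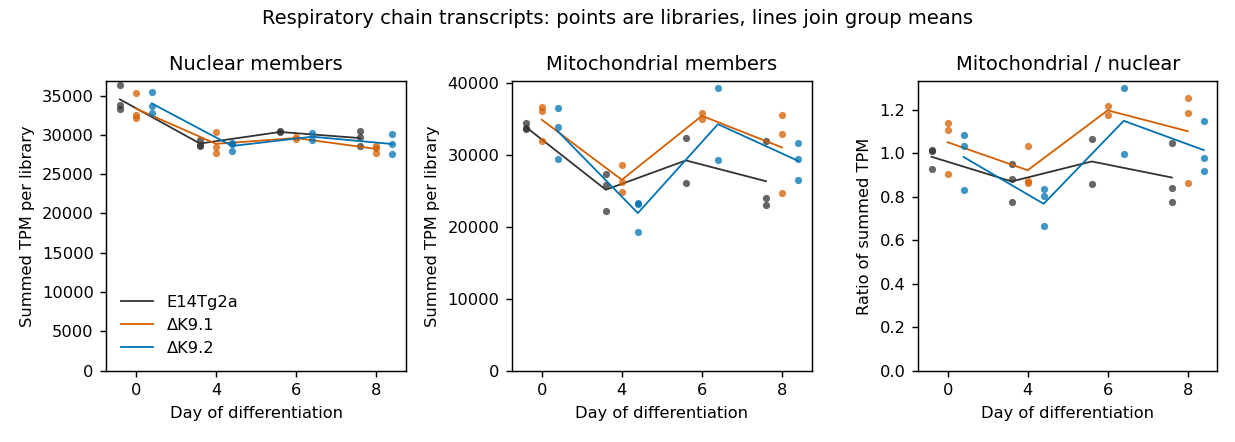
Summed TPM of the 103 nuclear members (left) and the 11 mitochondrial members (middle), and the ratio of the mitochondrial to the nuclear sum (right), against day of differentiation for E14Tg2a, ΔK9.1 and ΔK9.2. Points are libraries and lines join group means: the nuclear sums drop from 34508 TPM on day 0 to 28897 TPM on day 4 in E14Tg2a and stay low, while the mitochondrial sums spread widely on days 6 and 8.

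In E14Tg2a the members called on day 8 were mostly lower than on day 0, and most of these changes were small. Of 114 members, 42 fell and 9 rose, against 26.2% of all genes lower and 32.1% of all genes higher. The median log2 fold change was -0.19 for nuclear members and -0.30 for mitochondrial members, beside 0.05 for all genes tested, and 85 of 114 members had a negative sign. With a further requirement of an absolute log2 fold change above 1, there were 3 lower members (Ndufa4l2, Cox7a1 and Cox7b2) and 1 higher member (Cox4i2), where 11% of all genes were lower and 15.9% higher. All 4 of these large changes were in isoforms that stand beside a more widely used complex IV subunit.

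Complex IV, cytochrome c oxidase, held 15 of these 42 lower members, more than any other complex. Of its 10 general nuclear subunits, 8 fell and none rose in E14Tg2a on day 8, where 26.2% of all genes fell and 32.1% rose, with a median log2 fold change of -0.51. Cox5a, a matrix-side subunit, was at 521, 590 and 580 TPM on day 0 and at 356, 341 and 359 TPM on day 8. The groups were far apart, and the change was -0.68 ± 0.07 (adjusted p = 2.07e-08). Cox7c, a small subunit with a membrane helix, had 1759, 1814 and 1913 TPM on day 0 and 1198, 1080 and 1205 TPM on day 8, again with no overlap (-0.66 ± 0.07, adjusted p = 3.12e-08). Cox8a (-0.61), Cox6c (-0.55), Cox7a2 (-0.52), Cox7b (-0.49), Cox6a1 (-0.48) and Cox4i1 (-0.44), the other small subunits that fell, also had every day 8 library under every day 0 library. Cox5b, the zinc-binding subunit, and Cox6b1, on the intermembrane side, were not called, at -0.28 and 0.23, although Cox5b was with the replicate number as a block (adjusted p = 0.0334).

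The nuclear complex IV sum was lower on each later day in E14Tg2a. The summed TPM of the 27 nuclear members of complex IV was 17.8% below day 0 on day 4, 23.0% below on day 6 and 26.5% below on day 8 in E14Tg2a. On day 8 the same sum was 27.0% below day 0 in ΔK9.1 and 24.7% below in ΔK9.2, with day 8 libraries under all day 0 libraries in each line. Day 4 in the clones depended on scaling, where ΔK9.1 changed by -16.4% and with the median ratio by 1.12%, and ΔK9.2 by -17.6% and -5.56%. The same scaling gave -27.1% and -23.7% on day 8. Complex V followed another course, in which the 17 nuclear members were 15.8% below day 0 on day 4, 1.78% below on day 6 and 8.59% below on day 8 in E14Tg2a, with overlapping libraries on the latter days. The complex I, II and III sums on day 8 were 7.87%, 2.36% and 14.3% below day 0 in E14Tg2a, and each of these overlapped with day 0. The changes were -10.9%, -7.62% and -19.8% in ΔK9.1, without overlap, and -10.05%, -5.62% and -18.7% in ΔK9.2, of which complex II overlapped.

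**Figure D2:**
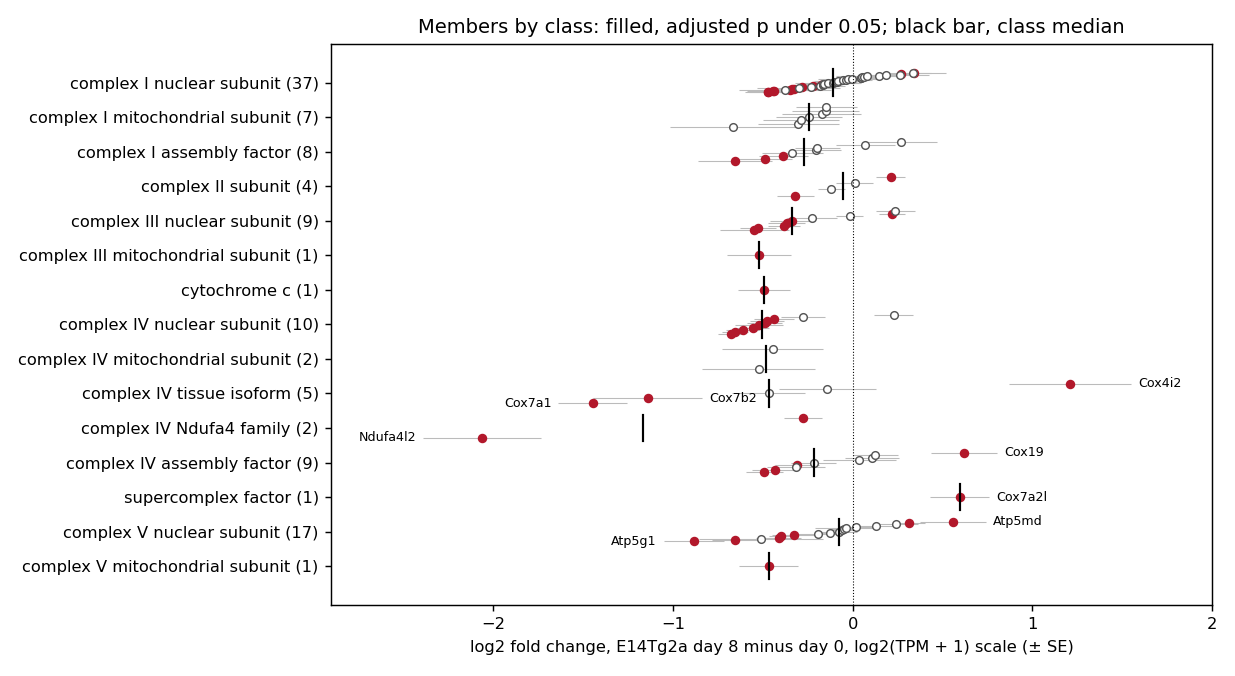
log2 fold change of each of the 114 members between day 0 and day 8 in E14Tg2a on the log2(TPM + 1) scale, with bars of ± 1 SE, grouped by complex and class with the number of members in brackets. Filled points are called and black bars are class medians: 8 of 10 general nuclear subunits of complex IV lie to the left of 0 with filled points, whereas the 37 nuclear subunits of complex I scatter around a median of -0.11.

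Complex I, the NADH dehydrogenase, changed less uniformly. Among its 37 nuclear subunits, 10 fell and 2 rose in E14Tg2a on day 8 (median -0.11), so that 27% were lower, near the 26.2% of all genes, and 5.41% higher, where 32.1% of all genes were. The falls included Ndufv1, which binds the flavin that accepts electrons from NADH (-0.47 ± 0.11, adjusted p = 0.000486), and Ndufs1, the large iron-sulphur subunit beside it (-0.44 ± 0.15, adjusted p = 0.0135). The 2 that rose were Ndufs7 (0.34 ± 0.10, adjusted p = 0.00366), which carries the last iron-sulphur cluster before quinone, and Ndufs3 (0.27 ± 0.09, adjusted p = 0.0114), from the same arm. Ndufs7 was at 139, 135 and 119 TPM on day 0 and at 154, 178 and 166 TPM on day 8, so all day 8 libraries were higher. Of the 8 assembly factors, 3 fell and none rose, and among them Ndufaf4 went from 22.5, 21.6 and 19.9 TPM to 18.6, 10.2 and 11.95 TPM (-0.65 ± 0.21, adjusted p = 0.00881). One of the 37 rows, Ndufb4c, is annotated as a processed pseudogene and by name goes with Ndufb4. It was not called (-0.18, adjusted p = 0.263) and was listed at 519 TPM in undifferentiated E14Tg2a beside 65.9 TPM for Ndufb4, so the split of reads between the pair is uncertain.

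Complex II changed little, whereas most called members of complex III and the electron carrier were lower. In complex II, the succinate dehydrogenase, the membrane anchors went opposite ways, with Sdhc at -0.32 ± 0.10 (adjusted p = 0.00967) and Sdhd at 0.21 ± 0.08 (adjusted p = 0.0256), and Sdha and Sdhb were not called. In complex III, the cytochrome bc1 complex, 5 of 9 nuclear members fell and 1 rose (median -0.34), beside 26.2% and 32.1% of all genes. Uqcrc1, a core protein, went from 329, 277 and 281 TPM to 223, 206 and 186 TPM, without overlap (-0.53 ± 0.10, adjusted p = 8.97e-05), whereas Uqcrc2, the other core protein, was at 0.22 ± 0.07 (adjusted p = 0.0117). Cyc1, the haem subunit that hands electrons on, fell by 0.38. Cycs, the cytochrome c that carries them to complex IV, fell by 0.49 (adjusted p = 0.00514) with 68.1, 83.4 and 87.3 TPM on day 0 and 69.9, 47.1 and 53.0 TPM on day 8. The highest day 8 library of Cycs lay above its lowest day 0 library.

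In complex V, 5 of 17 nuclear members fell and 2 rose in E14Tg2a on day 8 (median -0.08), which is 29.4% lower and 11.8% higher, beside 26.2% and 32.1% of all genes. Atp5b went from 3323, 3198 and 3055 TPM to 2439, 1908 and 1785 TPM (-0.66 ± 0.13, adjusted p = 8.72e-05), and Atp5a1, the α subunit that alternates with it in the catalytic head, fell by 0.40. Atp5md, a small subunit found in synthase dimers, had the higher level on day 8, with 2025, 1598 and 2443 TPM beside 1246, 1189 and 1668 TPM on day 0 (0.56 ± 0.18, adjusted p = 0.0106). Its groups overlapped in 1 pair of libraries, and with median ratio scaling it was not called (0.48, adjusted p = 0.0693). Atp5d, the δ subunit of the central stalk, was at 0.31 ± 0.09 (adjusted p = 0.00306). Cox7a2l, which helps to join complexes III and IV in supercomplexes, went from 126, 106 and 97.3 TPM to 151, 154 and 195 TPM (0.59 ± 0.16, adjusted p = 0.00321), and its ranges did not overlap. Cox19, a copper handling factor for complex IV, was called higher (0.62 ± 0.18, adjusted p = 0.00499), but not without E14Tg2a replicate 2 of day 8 (0.41, adjusted p = 0.064).

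The paired isoforms held the largest changes. Ndufa4 is a complex IV subunit that was once counted with complex I, and Ndufa4l2 is its paralogue, known as a hypoxia-induced gene. Ndufa4l2 was at 85.2, 83.1 and 42.5 TPM in E14Tg2a on day 0, at 94.8, 57.8 and 42.3 TPM on day 4, at 19.1 and 18.5 TPM on day 6 and at 21.5, 12.8 and 13.0 TPM on day 8. It thus held its level to day 4 and lay far lower from day 6 on, with a change on day 8 of -2.06 ± 0.33 (adjusted p = 7.58e-06). The step from day 4 to day 6 is also the one at which the aggregates were replated, and the part of the replating was not tested. ΔK9.1 and ΔK9.2 gave -1.81 ± 0.33 and -2.02 ± 0.33 for the same days (adjusted p = 6.05e-05 and 1.29e-05). Its share of the summed Ndufa4 and Ndufa4l2 TPM in E14Tg2a ran from 5.86% to 13.2% on day 0 and from 2.36% to 3.38% on day 8 (n = 3 each).

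Cox7a1, the isoform of heart and skeletal muscle, was likewise lower from day 6 on, after the replating. Its level in E14Tg2a was 60.6, 69.0 and 69.3 TPM on day 0, 115, 69.8 and 71.8 TPM on day 4, 28.9 and 38.9 TPM on day 6, and 26.7, 27.4 and 18.1 TPM on day 8. The day 8 change was -1.44 ± 0.19 in E14Tg2a (adjusted p = 5.27e-07), -1.59 ± 0.19 in ΔK9.1 (adjusted p = 2.29e-07) and -1.64 ± 0.19 in ΔK9.2 (adjusted p = 1.07e-07). Its share of the summed Cox7a1 and Cox7a2 TPM was 30.6% on day 0 and 18.7% on day 8 in E14Tg2a, as Cox7a2, the widely used partner, fell by less (-0.52). Of 12 listed markers of cardiac and striated muscle, 7 were higher on day 8 and none lower in E14Tg2a, against 32.1% of all genes higher. Their sum there went from 27.8 to 37.7 TPM on day 0 to 87.6 to 239 TPM on day 8, while the ranges of days 0 and 8 overlapped in both clones. In ΔK9.1 3 of the 12 were higher and 2 lower, near the 25.1% and 24.8% of all genes, and in ΔK9.2 4 were higher and 3 lower, where 24.6% and 26.7% of all genes were. The testis isoform Cox7b2 was at 1.63, 0.62 and 1.51 TPM on day 0 and was listed at 0 in all 3 E14Tg2a libraries of day 8.

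Cox4i2, an isoform of lung that is known to respond to oxygen, was the member that rose most. It was at 13.5, 14.8 and 11.1 TPM on day 0, 10.1, 4.44 and 8.20 TPM on day 4, 14.3 and 7.01 TPM on day 6, and 25.4, 34.4 and 35.7 TPM on day 8 in E14Tg2a. The day 8 libraries stood above all others of that line, and the change from day 0 was 1.21 ± 0.34 (adjusted p = 0.00362). Even so, Cox4i2 made up 2.98% of the summed Cox4i1 and Cox4i2 TPM on day 8, after 0.94% on day 0. In the clones the day 8 change was 0.53 ± 0.34 in ΔK9.1 (adjusted p = 0.204) and 0.69 ± 0.34 in ΔK9.2 (adjusted p = 0.0925), with overlapping ranges. The difference between clones and E14Tg2a in this change did not pass the test.

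The c ring of ATP synthase is made from Atp5g1, Atp5g2 and Atp5g3, which encode the same mature protein behind different import sequences. Atp5g1 had 332, 272 and 337 TPM on day 0 and 204, 157 and 150 TPM on day 8 in E14Tg2a (-0.88 ± 0.17, adjusted p = 6.91e-05), with no overlap. ΔK9.1 and ΔK9.2 gave -0.81 ± 0.17 and -0.97 ± 0.17. Neither Atp5g2 (0.13) nor Atp5g3 (0.24) was called in E14Tg2a, and the share of Atp5g1 in the family was 21.02% ± 1.86 on day 0 and 11.2% ± 1.63 on day 8 (SD, n = 3 each). The share of Atp5g3 was 45.5% on day 0 and 52.7% on day 8. Among the other pairs, Cox6b2, the testis partner of Cox6b1, had 21.5% of that pair on day 0 and 17.7% on day 8.

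**Figure D3:**
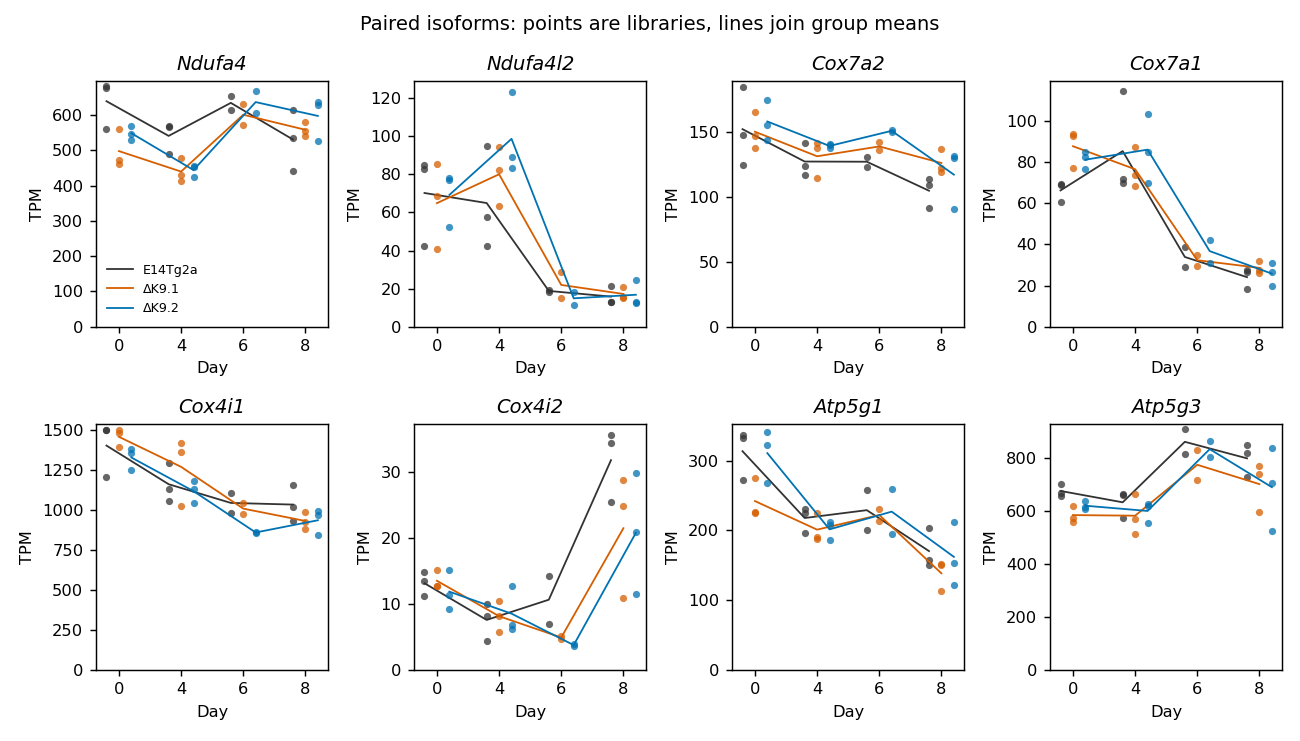
TPM of 4 isoform pairs (Ndufa4 and Ndufa4l2, Cox7a2 and Cox7a1, Cox4i1 and Cox4i2, Atp5g1 and Atp5g3) against day of differentiation in E14Tg2a, ΔK9.1 and ΔK9.2, with points for libraries and lines through group means. Ndufa4l2 and Cox7a1 drop between days 4 and 6 in all 3 lines, and Cox4i2 stands highest on day 8 in E14Tg2a, at 25.4 to 35.7 TPM.

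The mitochondrial members were noisier than the nuclear members. The median residual SD of the fit was 0.28 on the log2 scale for mitochondrial members, 0.15 for nuclear members and 0.24 for all genes. All 11 had a negative sign in E14Tg2a on day 8, and 2 were called, mt-Cytb and mt-Atp6. mt-Cytb, the complex III cytochrome b, was at 3375, 3853 and 3400 TPM on day 0 and at 3201, 2516 and 1856 TPM on day 8 (-0.52 ± 0.18, adjusted p = 0.0144). Its libraries did not overlap, but the call was lost without E14Tg2a replicate 3 of day 8 (-0.32, adjusted p = 0.143) and without E14Tg2a replicate 2 of day 0. mt-Atp6 was at 5252, 6276 and 7497 TPM on day 0 and at 5401, 3723 and 4650 TPM on day 8 (-0.47 ± 0.17, adjusted p = 0.0181), with overlap, and was not called without E14Tg2a replicate 3 of day 0 (-0.34, adjusted p = 0.117) or replicate 2 of day 8 (-0.32, adjusted p = 0.131).

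The mean mitochondrial sum of each line was lowest on day 4, which did not hold for each gene. The summed mt-Co2 and mt-Co3 of E14Tg2a had means of 5731 TPM on day 4, 4479 TPM on day 6 and 4741 TPM on day 8, and mt-Atp6 had 4986, 4802 and 4592 TPM, with overlapping libraries. In E14Tg2a 41 members fell and 1 rose on that day, against 15.9% of all genes lower and 10.4% higher, and 3 of the lower members were mitochondrial. The median log2 fold change was -0.26 for nuclear members, -0.47 for mitochondrial members and -0.07 for all genes. mt-Nd1 and mt-Nd3, subunits of the membrane arm of complex I, changed by -0.52 ± 0.17 (adjusted p = 0.0251) and -0.61 ± 0.21 (adjusted p = 0.0353), and mt-Cytb by -0.63 ± 0.18 (adjusted p = 0.00982). mt-Nd1 was at 4332, 3908 and 3075 TPM on day 0 and at 3243, 2375 and 2301 TPM on day 4, so its groups overlapped, whereas mt-Cytb, with 2347, 2491 and 2023 TPM on day 4, lay clear of day 0. The 1 member that rose was Ndufaf6, an assembly factor of complex I.

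Day 4 in the clones depended on the scaling of the libraries. In ΔK9.1 44 members fell and none rose, with 24.9% of all genes lower and 4.28% higher, and at an unadjusted p under 0.05 1 member was higher and 53 lower. In ΔK9.2 53 members fell and 2 rose, with 24.2% of all genes lower and 8.09% higher. The median over all genes was itself -0.21 in ΔK9.1 and -0.16 in ΔK9.2, which median ratio scaling moved by 0.213 and 0.153. Relative to all genes, the nuclear median of -0.21 in ΔK9.1 was no lower, while the mitochondrial medians were -0.48 and -0.62 in the clones in the same order. With median ratio scaling 4 members fell and 7 rose in ΔK9.1, 14 fell and 8 rose in ΔK9.2, and in E14Tg2a 22 fell and 1 rose. The ΔK9.1 count, 44 in the fit of all libraries, was 26 without its replicate 3 of day 0, 29 without replicate 1 of day 4 and 25 without replicate 3 of day 4.

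By day 6 no mitochondrial member was called in any line by limma, and at an unadjusted p under 0.05 1 was lower in E14Tg2a and 1 higher in ΔK9.1, while a replicate block added a call of mt-Atp6 in E14Tg2a. Over all members, 34 fell and 5 rose in E14Tg2a, against 20% of all genes lower and 19.6% higher. The 5 that rose were Ndufaf6, Ndufs3, Cox16, Atp5g3 and Atp5md. In ΔK9.1 31 fell and 4 rose (20.3% and 11.2% of all genes), and in ΔK9.2 35 fell and 6 rose (23.9% and 16% of all genes). Of the 27 nuclear members of complex IV, 15 fell in E14Tg2a, and ΔK9.1 and ΔK9.2 had 13 and 15. Day 6 has 2 libraries per line, and the E14Tg2a count of 39 was 24 without replicate 2 and 18 without replicate 3. The ΔK9.1 count of 35 was 17 without replicate 2, and the ΔK9.2 count of 41 was 27 without replicate 3.

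**Figure D4:**
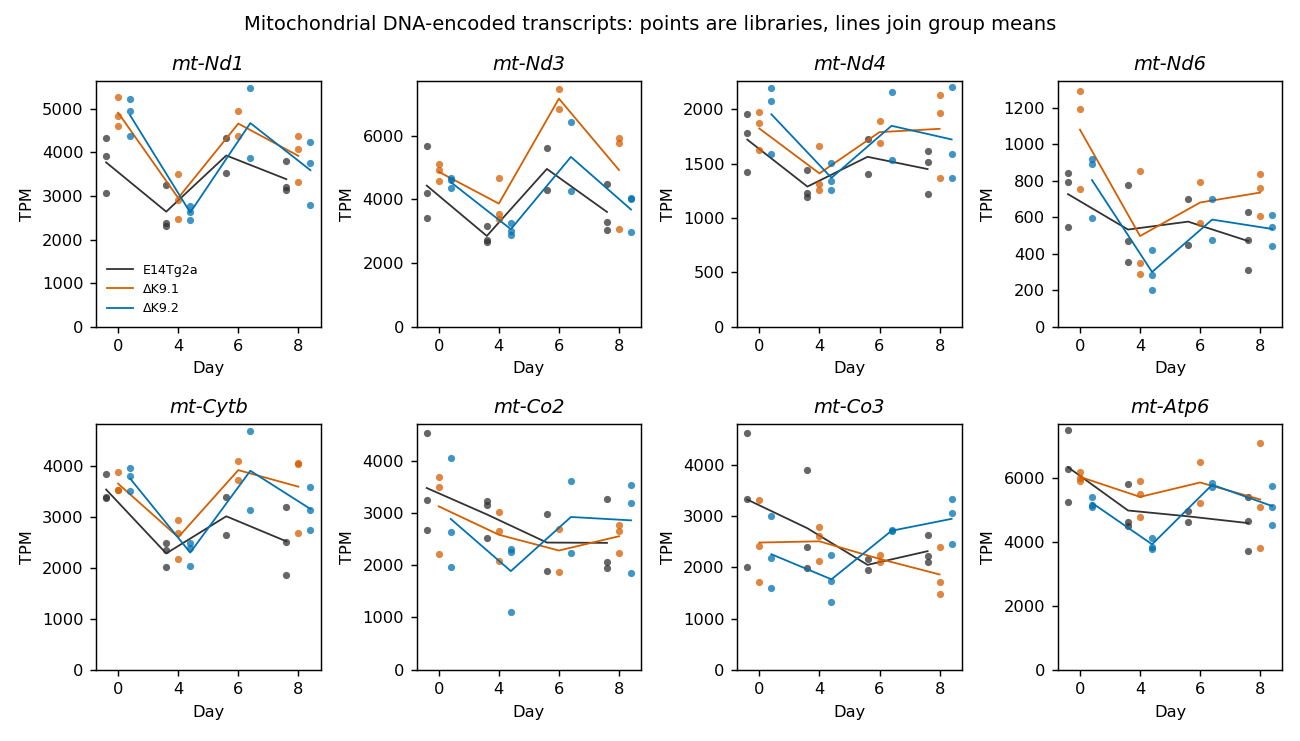
TPM of 8 of the 11 mitochondrial members against day of differentiation in E14Tg2a, ΔK9.1 and ΔK9.2, with points for libraries and lines through group means. mt-Nd1, mt-Nd3 and mt-Cytb dip on day 4 and are higher on day 6, while mt-Co2 and mt-Co3 spread widely between libraries of 1 group, as in E14Tg2a on day 0 where mt-Co3 runs from 1999 to 4626 TPM.

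On the mitochondrial chromosome of mm10, 10 of the 11 members lie on the plus strand and mt-Nd6 on the minus strand. In these poly-A libraries mt-Nd6 had the lowest level of them, at 628 TPM over all libraries. Poly-A selection keeps RNA by its tail, and tails were not measured. The level of mt-Nd6 and its changes therefore need not follow the amount of its RNA. Pairs of these genes overlap, with 1 base shared by mt-Atp6 and mt-Co3, 7 by mt-Nd4l and mt-Nd4 and 14 by mt-Nd5 and mt-Nd6. The first 2 pairs are on 1 strand, so reads in their shared bases belong to both genes, whereas mt-Nd5 and mt-Nd6 are on opposite strands and these stranded libraries keep them apart. In E14Tg2a, mt-Nd6 was at 843, 793 and 546 TPM on day 0, then at 627, 308 and 473 TPM on day 8 (-0.66 ± 0.35, adjusted p = 0.112, and 0.0365 in the blocked fit). Its neighbours on the other strand, mt-Nd5 and mt-Cytb, changed by -0.17 and -0.52. The nuclear members were spread over 19 chromosomes, with none on chromosome 14.

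Day 8 brought similar counts in the clones, each compared with its own day 0. In ΔK9.1 41 members fell and 5 rose, where 24.8% of all genes were lower and 25.1% higher. In ΔK9.2 40 members fell and 6 rose, where 26.7% of all genes were lower and 24.6% higher. There were 25 members that fell in all 3 lines (21.9% of members, against 17.5% of all genes), which is 59.5% of the 42 in E14Tg2a, 61% of the 41 in ΔK9.1 and 62.5% of the 40 in ΔK9.2. Of all genes that fell in a line, 66.9%, 70.6% and 65.5% in the same order fell in all 3. The 25 members included 7 of the 10 general nuclear subunits of complex IV, Ndufa4l2, Cox7a1, Atp5g1, Atp5a1 and Atp5b, the copper chaperone Cox17 and the copper insertion factor Cox11. Atp5md was the 1 member that rose in all 3 lines (0.877% of members), where 18.4% of all genes did. No mitochondrial member fell in all 3 lines.

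Undifferentiated clones and E14Tg2a differed in few members. As the mean of both clones minus E14Tg2a, 2 members were higher and none lower, against 2.76% of all genes higher and 1.23% lower, and at an unadjusted p under 0.05 there were 8 higher and 12 lower. Cox6a1, the widely used form of a complex IV subunit, was at 928, 886 and 998 TPM in E14Tg2a, at 1389, 1352 and 1411 TPM in ΔK9.1 and at 1218, 1190 and 1398 TPM in ΔK9.2. All clone libraries lay above E14Tg2a (0.50 ± 0.08, adjusted p = 0.00116). Ndufaf1, an early assembly factor of complex I, was at 30.7, 31.0 and 30.1 TPM in E14Tg2a, at 61.2, 69.3 and 74.2 TPM in ΔK9.1 and at 34.2, 45.6 and 45.9 TPM in ΔK9.2 (0.78 ± 0.14, adjusted p = 0.00198). Its clones did not overlap with each other either, and the difference from E14Tg2a was 1.13 ± 0.16 for ΔK9.1 (adjusted p = 0.000114) and 0.43 ± 0.16 for ΔK9.2 (adjusted p = 0.543). Cox6a1 was above E14Tg2a in either clone, by 0.56 (adjusted p = 0.000595) in ΔK9.1 and by 0.43 (adjusted p = 0.0555) in ΔK9.2. The deletion rests on 2 independent clones that were both transfected and picked, which cannot be told apart from the deletion itself. With the replicate number as a block 3 members were higher and 1 lower, where 4.76% of all genes were higher and 1.84% lower. Without E14Tg2a replicate 1 of day 0 the number of called members was 11, and in that library the visceral endoderm markers summed to 136 TPM, beside 10.8 and 14.6 TPM in the other 2 libraries of its group. Replicate 1 was also the highest of its group in the clones, at 68.9 TPM beside 9.34 and 8.65 TPM in ΔK9.2 and at 14.6 TPM beside 8.02 and 6.38 TPM in ΔK9.1.

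Days 4 and 6 likewise showed few differences between the clones and E14Tg2a. On day 4 1 member was higher, Cox6a1 (0.32, adjusted p = 0.0386), and 1 lower, Ndufb3 (-0.29, adjusted p = 0.0487), against 0.447% of all genes higher and 2.4% lower. On day 6 Cox6a1 was again higher (0.44, adjusted p = 0.0136), and 2 members were lower, among them Ndufb4c (-0.54, adjusted p = 0.0328), against 1.11% of all genes higher and 2.72% lower. Cox6a1 on day 6 had 595 and 598 TPM in E14Tg2a beside 729 to 912.5 TPM in the 4 clone libraries. These counts ranged from 0 to 4 on day 4 and from 0 to 6 on day 6 when single libraries were left out. With a replicate block 2 were higher and 2 lower on day 4, against 0.771% and 4.22% of all genes, and 2 were higher and 5 lower on day 6, against 1.95% and 4.28%. Cell type markers differed on these days too. The visceral endoderm markers summed on day 4 to 121 to 947 TPM in E14Tg2a, with ΔK9.1 at 6.79 to 48.6 TPM and ΔK9.2 at 27.1 to 253 TPM, and 10 of 12 were lower in the clones. On day 6 their sum was 127 to 264 TPM in E14Tg2a and 13.4 to 45.9 TPM in the clones, with 3 of 12 lower, and the pluripotency markers summed to 1357 to 1545 TPM in E14Tg2a and 1836 to 2254 TPM in the clones. The part of these markers' cells in the differences was not tested.

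On day 8 the clones differed from E14Tg2a in 15 members, with 6 higher and 9 lower, against 7.52% of all genes higher and 12.2% lower. With the replicate number as a block 7 were higher and 16 lower, against 10% and 15% of all genes. The higher members were Ndufaf4, Cycs, Ndufaf2, mt-Cytb, Cox5a and Cox7c. Ndufaf4, an assembly factor of complex I, was at 18.6, 10.2 and 11.95 TPM in E14Tg2a, at 26.6, 31.9 and 30.0 TPM in ΔK9.1 and at 37.1, 21.5 and 19.4 TPM in ΔK9.2. Every clone library lay above every E14Tg2a library, and the difference was 0.99 ± 0.18 (adjusted p = 0.000438). Ndufaf2, which acts late in complex I assembly, was at 54.5, 41.8 and 41.8 TPM in E14Tg2a and at 55.9 to 76.5 TPM in the clones (0.47 ± 0.12, adjusted p = 0.0074). Cox5a (0.20, adjusted p = 0.0297) and Cox7c (0.19, adjusted p = 0.0319) were higher by small amounts, with overlapping libraries for Cox7c, and mt-Cytb was at 0.44 (adjusted p = 0.0478) with overlap.

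Of the 9 lower members on day 8, 7 were of complex I, which is also the complex with most members. Of its 37 nuclear rows 7 were lower (18.9%, against 12.2% of all genes), none higher (1 at an unadjusted p under 0.05), and 32 had a negative sign, with a median of -0.16 beside -0.0035 for all genes. Without the pseudogene Ndufb4c these were 6 of 36 (16.7%), and 31 with a negative sign. Ndufs7, a core subunit with an iron-sulfur cluster near the quinone site, was at 154, 178 and 166 TPM in E14Tg2a and at 110 to 145 TPM in the clones (-0.42 ± 0.08, adjusted p = 0.00085). All clone libraries of Ndufs7 lay under those of E14Tg2a. Ndufv3, an accessory subunit beside the flavin site, was at -0.51 (adjusted p = 0.00877) with overlap. Ndufa13 (-0.41), Ndufb4c (-0.34), Ndufa8 (-0.27) and Ndufb9 (-0.21) were also among the complex I calls, and Cox5b (-0.38, adjusted p = 0.0109) and Uqcrc2 (-0.19, adjusted p = 0.0312) were the lower members outside complex I. Of the 7, the unblocked test of changes from day 0, given below, called only Ndufb9. By estimate, Ndufa13 (-0.23 and -0.28), Ndufa8 (-0.26 and -0.07), Ndufb4c (-0.21 and -0.13) and Ndufs7 (-0.07 and -0.13) were already lower in ΔK9.1 and ΔK9.2 on day 0. Ndufv3 (0.09 and 0.01) and Ndufb9 (0.14 and 0.09) were higher, and none of these was called. On day 8 all 11 mitochondrial members had a positive sign, with a median of 0.18, and 1 was called. Without E14Tg2a replicate 2 of day 8 there were 5 calls, 2 higher and 3 lower, and in a fit of the day 8 libraries alone there were none, with 5 higher and 10 lower at an unadjusted p under 0.05.

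Marker genes of several cell types moved with this day 8 comparison. The 10 pluripotency markers, all at 1 TPM or more as a mean in each line, summed in E14Tg2a to 193 to 379 TPM, while ΔK9.1 had 411 to 985 TPM and ΔK9.2 had 475 to 1143 TPM, and 7 of 10 were called higher and 1 lower in the clones. The 12 visceral endoderm markers summed in E14Tg2a to 386 to 534 TPM, while ΔK9.1 had 34.9 to 145 TPM and ΔK9.2 had 55.9 to 73.2 TPM, with 9 of 12 lower. The 10 erythroid and blood markers summed in E14Tg2a to 1094 to 5044 TPM, while ΔK9.1 had 39.3 to 1980 TPM and ΔK9.2 had 12.9 to 241 TPM, with 9 of 10 lower. The 12 cardiac markers (E14Tg2a 87.6 to 239 TPM, ΔK9.1 35.4 to 69.3 TPM, ΔK9.2 40.3 to 73.1 TPM) had 8 of 12 lower and the 6 endothelial markers 5 of 6 lower. Their part in the differences of respiratory chain members was not tested.

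A test of whether the change from day 0 itself differed between the clones and E14Tg2a called 2 members on day 8, against 1.35% of all genes with a higher and 4.95% with a lower change in the clones. With the replicate number as a block it called 8, of which 3 were higher and 5 lower, against 2.43% and 7.6% of all genes, and these added Ndufaf1, Ndufv3, Cox19, Ndufa4, Cox7c and Atp5d. Cycs was the higher of the 2. It was at 60.2, 61.3 and 64.6 TPM in ΔK9.1 on day 0 and at 92.5, 77.1 and 80.4 TPM on day 8, and in ΔK9.2 at 75.6, 64.4 and 60.1 TPM and then at 104, 94.4 and 75.7 TPM. Cycs rose within ΔK9.1 (0.42, adjusted p = 0.0197) and within ΔK9.2 (0.44, adjusted p = 0.0129) while it fell within E14Tg2a, and the changes differed by 0.92 ± 0.18 (adjusted p = 0.00473). In all 3 lines its day 6 libraries were at 75.3 TPM or more, and those of E14Tg2a and the pooled clones overlapped on days 0, 4 and 6 but not on day 8. Taken alone, the ΔK9.1 libraries of day 0 were all under those of E14Tg2a (-0.35, adjusted p = 0.13), which enters the difference of changes, and the ΔK9.2 libraries of day 6 were all above (0.14, adjusted p = 0.859). Ndufb9, an accessory subunit of the membrane arm of complex I, fell by 0.17 in E14Tg2a, by 0.47 in ΔK9.1 and by 0.51 in ΔK9.2, a difference of -0.32 ± 0.08 (adjusted p = 0.0187). Its day 0 libraries of each clone were all above those of E14Tg2a, which enters this difference. That day 0 gap was 0.14 in ΔK9.1 (adjusted p = 0.191) and 0.09 in ΔK9.2 (adjusted p = 0.943).

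The same test called no member on day 4 or day 6. At an unadjusted p under 0.05 limma gave 0 higher and 1 lower on day 4 and 1 higher and 3 lower on day 6, and the shares of all genes called were 0.0122% higher and 0.00612% lower on day 4 and 0.0612% and 0.245% on day 6. The day 8 call of Ndufb9 was lost with median ratio scaling (-0.23, adjusted p = 0.147), in a fit of days 0 and 8 alone (-0.32, adjusted p = 0.0593) and without E14Tg2a replicate 3 of day 0 (-0.28, adjusted p = 0.0729). The number of members called on day 8 ran from 1 to 7 as single libraries were left out, with 7 without E14Tg2a replicate 1 of day 0 or without ΔK9.1 replicate 2 of day 8, 6 without E14Tg2a replicate 1 of day 8, and 4 without E14Tg2a replicate 3 or ΔK9.2 replicate 3 of day 8.

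**Figure D5:**
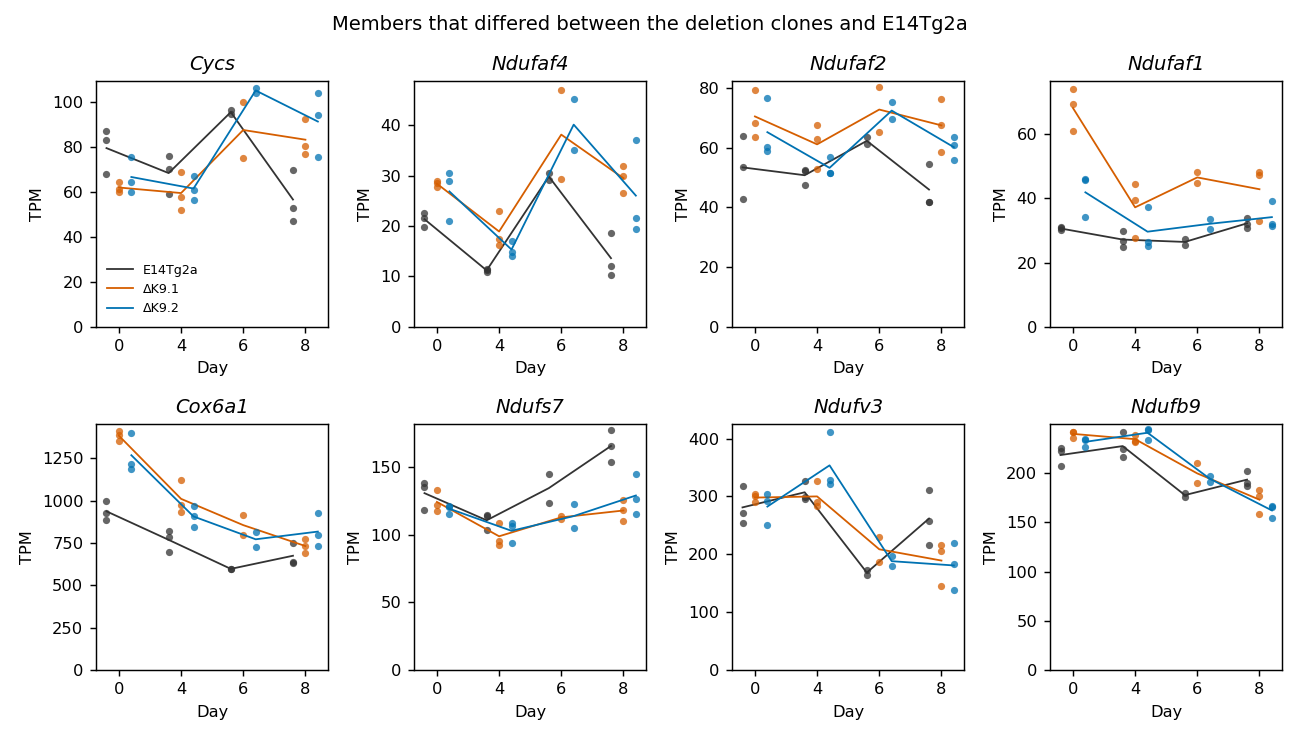
TPM of 8 members called between the clones and E14Tg2a, against day of differentiation in the 3 lines, with points for libraries and lines through group means. The Cycs libraries of E14Tg2a overlap with those of the clones to day 6 and on day 8 are lowest in E14Tg2a, at 47.1 to 69.9 TPM, and the Ndufs7 libraries of E14Tg2a are the highest on day 8.

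Of the 103 nuclear members, 83 had a promoter in the RefSeq table of GRCm38.p6, and the 250 bases before the start were searched on both strands for motifs of factors known to act on respiratory genes. The NRF1 motif CGCATGCG was in 9 members (10.8%) and in 1.75% of the 27025 genes of the table, and the ETS motif CCGGAAG, bound by GABPA, in 17 members (20.5%) and 7.83% of genes. The CREB motif TGACGTCA was in 5 members (6.02%, all genes 1.77%), the YY1 motif AAGATGGCG in 1 (1.2%, all genes 0.71%) and the estrogen-related receptor motif TCAAGGTCA in 1 (1.2%, all genes 0.422%). The windows of Cycs and Ndufaf4, the higher nuclear members of the day 8 clone comparison with the largest differences, and of Atp5g1 and Atp5g2, which encode the same mature protein and moved differently, are printed here 5′ to 3′ on the gene's strand, with these motifs in capitals. Cycs is chr6:50566570-50566819 on the minus strand, with CREB starting at -169 and NRF1 at -61 from the start, and Ndufaf4 is chr4:24897833-24898082 on the plus strand, with NRF1 at -112. Atp5g1 is chr11:96075632-96075881 on the minus strand and holds none of the 5 motifs, and Atp5g2 is chr15:102671048-102671297 on the minus strand, with NRF1 at -41. Each window lies before the RefSeq start in that table. That of Atp5g2 falls inside the gene as GENCODE M21 places it (chr15:102662864-102672352). The window of Atp5g1 falls partly inside its gene (chr11:96068852-96075670). These letter matches are descriptions of the sequence.
Cycs: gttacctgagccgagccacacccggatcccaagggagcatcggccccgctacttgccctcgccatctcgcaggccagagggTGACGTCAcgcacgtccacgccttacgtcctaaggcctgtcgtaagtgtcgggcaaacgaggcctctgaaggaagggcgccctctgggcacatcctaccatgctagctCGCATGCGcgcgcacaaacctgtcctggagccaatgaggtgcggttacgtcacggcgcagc
Ndufaf4: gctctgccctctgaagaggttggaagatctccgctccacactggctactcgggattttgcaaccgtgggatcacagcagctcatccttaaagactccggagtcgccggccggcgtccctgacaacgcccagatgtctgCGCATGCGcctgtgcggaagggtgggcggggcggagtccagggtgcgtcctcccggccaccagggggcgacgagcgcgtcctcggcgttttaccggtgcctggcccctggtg
Atp5g1: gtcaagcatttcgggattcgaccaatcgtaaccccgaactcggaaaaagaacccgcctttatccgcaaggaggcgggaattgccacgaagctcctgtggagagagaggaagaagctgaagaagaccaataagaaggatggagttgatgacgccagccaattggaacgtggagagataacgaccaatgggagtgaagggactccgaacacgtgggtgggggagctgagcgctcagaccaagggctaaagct
Atp5g2: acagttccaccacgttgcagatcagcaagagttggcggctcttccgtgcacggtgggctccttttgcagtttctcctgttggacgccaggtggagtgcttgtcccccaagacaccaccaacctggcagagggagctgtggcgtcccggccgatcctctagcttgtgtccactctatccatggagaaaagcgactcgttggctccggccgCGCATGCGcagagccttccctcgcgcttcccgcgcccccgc

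Other genes of mitochondrial function were counted in the same fit. Of 26 listed genes for transcription and upkeep of mitochondrial DNA, 18 were lower and 2 higher in E14Tg2a on day 8, with a median of -0.60, where 26.2% of all genes were lower and 32.1% higher. They included Lrpprc, which stabilises mitochondrial mRNAs, from 57.6 to 30.3 TPM (-0.92, adjusted p = 0.000157), Fastkd1, an RNA-binding protein of mitochondria (-1.06), and Prorp, the nuclease that frees transfer RNAs (-1.13), whereas Polg, the mitochondrial DNA polymerase, went from 51.0 to 129 TPM (1.31, adjusted p = 3.42e-09). Of 81 mitochondrial ribosomal proteins 33 were lower and 13 higher (median -0.12), from Mrpl15 at -0.94 to Mrpl14 at 0.90. In the day 8 comparison of clones with E14Tg2a, 8 of the 26 were higher and 1 lower, and of the ribosomal proteins 6 were higher and 6 lower, where 7.52% of all genes were higher and 12.2% lower.

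The smaller lists stand against the same 26.2% of all genes lower and 32.1% higher. Among regulators of mitochondrial biogenesis 5 of 10 listed genes were lower and 1 higher in E14Tg2a on day 8. Esrrb, which is also on the pluripotency list, went from 248 to 4.48 TPM (-5.57), Gabpa, an ETS factor, from 74.0 to 32.6 TPM (-1.16), and Pprc1, a coactivator, from 65.1 to 33.5 TPM (-0.95), while Gabpb1, the partner of Gabpa, was at 0.54. The citric acid cycle list had 6 of 17 lower and 3 higher, with Idh3a (-0.93) and the pyruvate dehydrogenase subunits Pdhb (-0.69) and Pdha1 (-0.52) lower and Idh2 (0.54), Dlst (0.49) and Dld (0.34) higher. Among the 38 further assembly factors, which the name rule does not reach, 8 were lower and 5 higher, with Ecsit at -0.87 and Coa3 at 0.98. The carriers that exchange ATP for ADP showed an isoform shift of their own, in which Slc25a5 went from 744 to 347 TPM (-1.11, adjusted p = 2.38e-08) and Slc25a4, the form of heart and muscle, from 199 to 463 TPM (1.22, adjusted p = 2.31e-06). In the clones on day 8 Slc25a5 was higher than in E14Tg2a (0.39, adjusted p = 0.00929) and Slc25a4 lower (-0.56, adjusted p = 0.0116).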

How the data were processed

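The authors prepared stranded poly-A RNA libraries and read them as paired ends, and 33 libraries were analysed here. STAR placed the reads on mm10, and the deposited TPM values were computed by RSEM for each library, with outliers on a principal component left out. Whether these were libraries or genes is not given in the sources used here. Tool versions and the gene annotation are not given in the sources used here. The table also holds 22 columns with the log2 fold changes and FDR of the authors' own comparisons made with DESeq2, and these were not used. TPM keep no depth, so the precision comes from the replicates, which the methods describe as 3 independent assays.

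Differences were fitted to log2(TPM + 1) over all 33 libraries with limma 3.58.1 in R 4.3.3, with an intensity trend, the 12 groups as terms and Benjamini-Hochberg adjustment over 16336 genes. Deletion clones were compared as the mean of both minus E14Tg2a, and a difference of differences tested whether changes from day 0 differed. The code was tested on simulated data. Genes were placed by symbol with GENCODE M21 (113 of 114 members), and the figures were drawn with matplotlib 3.10.9. Members and lists were chosen with earlier results of these data known. Genes named by rule were the mitochondrial members, the highest nuclear member of each complex, Cycs, the isoform families, up to 8 called members with the largest change in each direction in E14Tg2a on day 8 and in the clones on days 0 and 8, and up to 3 genes in each direction from the other lists. Other genes were named after their values were seen, and 1 member that the rule names is not reported here. Alternatives were median ratio scaling, scaling without mitochondrial rows, a pseudocount of 0.1, a minimum of 5 TPM, a fit of the compared groups alone, a replicate block and leaving out each library.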

Additional observations from a re-analysis of the deposited data

Results flagged for a closer look

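Cycs and Ndufb9 are given here because the clones and E14Tg2a changed unequally to day 8 by a test of that difference. For Cycs the change in the clones minus that in E14Tg2a was 0.92 on the log2 scale (SE 0.18, adjusted p = 0.00473 by limma), with a fall in E14Tg2a and a rise in each clone. The call held with each alternative scaling, fit and left-out library that was run. For Ndufb9 the difference was -0.32 (SE 0.08, adjusted p = 0.0187), with a fall in each of the 3 lines, and the call did not hold under each alternative.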

How the results depend on the processing

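Counts of called members on days 6 and 8 within a line stayed within 1.5 times of the stated count under each alternative that kept all libraries, and a pseudocount of 0.1, a minimum of 5 TPM and scaling without mitochondrial rows kept each count there too. With median ratio scaling the number called on day 4 was 11 in ΔK9.1, 22 in ΔK9.2 and 23 in E14Tg2a, the clones differed from E14Tg2a in 5 members on day 0, and 1 member differed in its change to day 8. A fit of the compared groups alone called 22 members in E14Tg2a on day 4, 5 between clones and E14Tg2a on day 0, none on days 4, 6 and 8 (at an unadjusted p under 0.05, 4 higher and 15 lower, 5 and 13, and 5 and 10), and 1 for the change to day 8. In that fit Cycs on day 8 was at 0.63 with adjusted p = 0.0676 and Ndufaf4 at adjusted p = 0.0728, whereas the day 0 differences of Ndufaf1 and Cox6a1 held under each alternative. Leaving out 1 library at a time gave, on days 4, 6 and 8, counts of 29 to 37, 18 to 36 and 41 to 54 in E14Tg2a, 25 to 39, 17 to 28 and 33 to 42 in ΔK9.1, and 41 to 47, 27 to 37 and 37 to 44 in ΔK9.2. For clones minus E14Tg2a the counts were 2 to 11, 0 to 4, 0 to 6 and 5 to 19 on days 0, 4, 6 and 8, and for the differing changes 0 on days 4 and 6 and 1 to 7 on day 8. The day 4 and day 6 clone counts rest on several libraries each, and the cause of these shifts was not tested.

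Libraries with the same replicate number correlated in their deviations from the group means above 0.1 in 31 of 33 pairs (median 0.222, lowest -0.0129), other numbers had a median of -0.127, and 33 of 33 libraries correlated best with their own number. The lines were differentiated side by side in independent assays, but no source used here ties the number to the assay. In a fit with a replicate block, the clones differed from E14Tg2a in 4, 4, 7 and 23 members on days 0, 4, 6 and 8, and 8 members differed in their change to day 8, while the counts within a line stayed within 1.5 times of those stated.

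The percent changes of sums carried no test. Median ratio scaling gave -8.02% and -24.4% for the mitochondrial sum on day 4 in ΔK9.1 and ΔK9.2, and for the nuclear sum 4.54%, -3.59% and -12.02% on day 4 in ΔK9.1, ΔK9.2 and E14Tg2a, -18.98% on day 8 in E14Tg2a, and -6.98%, 6.13% and 0.407% for clones minus E14Tg2a on days 0, 4 and 6. Taking the median over members in place of the sum gave 6.37% for mitochondrial members in ΔK9.2 on day 8, and for nuclear members -9.23% and -9.04% in ΔK9.2 on days 4 and 8, -16.7% in ΔK9.1 on day 8, -6.20% and -3.05% in E14Tg2a on days 6 and 8, and 2.87%, 7.89%, -0.969% and -7.69% for clones minus E14Tg2a on days 0, 4, 6 and 8. Scaling without mitochondrial rows gave -12.6% for nuclear members in E14Tg2a on day 6. With 1 library left out, the nuclear sum changed by -17.7% to -13.9% (day 4) and -13.5% to -9.52% (day 6) in E14Tg2a, -16.9% to -12.9% (day 8) in ΔK9.1 and -17.3% to -14.1% (day 4) in ΔK9.2, and the mitochondrial sum of the clones minus E14Tg2a on day 6 by 7.63% to 33.6%. TPM give no depth, so the replicates set what could be detected, and 2 libraries a line on day 6 set it least well.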

Other observations

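The 2 mitochondrial ribosomal RNAs, which are not members, were present in these poly-A libraries at levels below most of the mitochondrial mRNAs. Over the 33 libraries mt-Rnr1 was listed at 298 to 863 TPM and mt-Rnr2 at 197 to 767 TPM. Ndufb1-ps, the row dropped for its name, was at 55.9 to 102 TPM.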
